A study of Homo sapiens with 10 samples.

Results

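MYC and the genes of ribosome biogenesis were followed in HEK293T cells that overexpressed the kinase BRSK2 or BRSK1. The set held 50 genes, taken by gene name from the count tables: MYC, MYCN and MAX, and 47 genes for RNA polymerase I, small nucleolar ribonucleoproteins (snoRNPs), nucleolar proteins and assembly factors of the small (40S) and large (60S) ribosomal subunits. These 50 were set among 58676 genes in the tables. Of the 50 genes, 49 passed the filter on low counts, as did 16936 genes in all, and MYCN did not.

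MYC is a transcription factor that binds DNA as a pair with MAX, often at the sequence CACGTG, called an E-box, and genes of ribosome production are among its best known targets. Ribosome production begins in the nucleolus, where RNA polymerase I copies the ribosomal DNA. snoRNPs then modify the precursor RNA, and assembly factors cut it and fold it into the small and large subunits. BRSK1 and BRSK2 are related serine/threonine kinases of the AMPK family, and the title of the series names both as negative regulators of the transcription factor NRF2.

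The study sequenced total RNA of HEK293T, a line derived from human embryonic kidney that carries adenoviral and SV40 large T antigen sequences. Groups were 3 samples with BRSK2 overexpressed, 3 with BRSK1 overexpressed and 2 with hcRED, a red fluorescent protein, overexpressed, each for 24 h before collection, and 2 samples labelled Mock. All 10 came from the same line in DMEM with serum, and Mock is not described further. The labels do not state if samples of a group were grown apart, and the p-values therefore reflect the variation among these libraries alone, and that variation may be technical.

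Total counts ran between 16516116 and 24304302 per library. The overexpressed gene took 6.99% to 10.4% of the counts in BRSK2 libraries and 4.72% to 6.96% in BRSK1 libraries, against at most 0.0099% for either gene in the hcRED and Mock libraries. All 9 of 9 HEK293 markers reached a level of 1 CPM, the unit of counts scaled by library size, in every library, as did 1 of 3 fibroblast markers and 0 of 7 markers of leukocytes, endothelium and hepatocytes. The keratinocyte genes KRT5 and KRT14 stood at 29.2 and 32.7 CPM in BRSK1 replicate 1, and at no more than 5.25 and 9.34 CPM in each other library. Without that library the count of members called in BRSK1 cells was again 5. Levels in CPM, those of the markers and all below, are TMM-scaled CPM, that is, CPM with library sizes adjusted by trimmed mean of M-values. Differences are log2 fold changes with their SE, and a gene was called where edgeR's quasi-likelihood test gave an adjusted p under 0.05 over all 16936 genes. "The controls" means the average of the hcRED and Mock groups. Both kinases were set against the same hcRED and Mock libraries.

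The promoter sequences show which members hold the letters that MYC and MAX bind. RefSeq promoters (GRCh38.p14, 250 bases before to 50 after the start) were matched by symbol for 41 members. BOP1, DDX18, MYC, NOLC1, NOP58, RRP12, RRP1B, RRS1 and URB2 had no entry. The motif searched was CACGTG, which reads the same on both strands. It stood in 11 of the 41 member promoters (26.8%) and in 2548 of 35116 promoters in the whole table (7.26%). Only the first promoter listed for each member was searched, while every promoter in the table was counted, so these shares cover unlike sets. A match is a description of the letters and not a binding site. Among the members called lower with either kinase, 7 had a promoter in the table and 2 of these held the motif, UTP20 and WDR43. Their whole promoters follow, with the E-box in capitals, UTP20 at chr12:101279855-101280154 and WDR43 at chr2:28894417-28894716, both on the plus strand.
UTP20: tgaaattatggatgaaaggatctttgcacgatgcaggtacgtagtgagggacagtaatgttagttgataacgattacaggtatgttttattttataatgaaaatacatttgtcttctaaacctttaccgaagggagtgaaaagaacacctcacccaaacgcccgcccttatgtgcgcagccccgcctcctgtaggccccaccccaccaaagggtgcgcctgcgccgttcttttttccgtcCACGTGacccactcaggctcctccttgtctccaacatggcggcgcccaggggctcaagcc
WDR43: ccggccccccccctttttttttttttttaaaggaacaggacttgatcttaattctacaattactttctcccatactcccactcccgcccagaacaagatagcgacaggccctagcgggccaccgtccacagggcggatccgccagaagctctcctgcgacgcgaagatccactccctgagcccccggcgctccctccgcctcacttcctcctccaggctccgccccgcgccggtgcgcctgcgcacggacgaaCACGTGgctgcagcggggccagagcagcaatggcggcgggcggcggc

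The other 9 members with the motif are shown as 30-base windows around it, to compare the flanks (NOP2 as 27 bases, where its promoter ended).
BYSL: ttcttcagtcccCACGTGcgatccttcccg
FBL: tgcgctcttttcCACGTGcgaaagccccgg
MRTO4: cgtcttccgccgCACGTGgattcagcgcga
NOC3L: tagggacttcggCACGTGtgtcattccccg
NOP14: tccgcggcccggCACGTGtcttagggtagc
NOP2: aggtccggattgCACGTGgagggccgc
PES1: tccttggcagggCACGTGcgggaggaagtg
RRP9: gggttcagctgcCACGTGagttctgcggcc
UTP4: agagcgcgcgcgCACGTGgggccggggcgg
The windows lie at chr6:41921515-41921544 (BYSL, plus strand), chr19:39846356-39846385 (FBL, minus strand), chr1:19251807-19251836 (MRTO4, plus strand), chr10:94362903-94362932 (NOC3L, minus strand), chr4:2963374-2963403 (NOP14, minus strand), chr12:6568242-6568268 (NOP2, minus strand), chr22:30591880-30591909 (PES1, minus strand), chr3:51941892-51941921 (RRP9, minus strand) and chr16:69132621-69132650 (UTP4, plus strand). Across these 11 members the median log2 fold change was 0.02 for BRSK2 against the controls and -0.12 for BRSK1 against the controls. Across the 29 tested members without the motif (MYC is not among them) the medians were -0.01 and -0.09, in the same order. No test was made of these medians.

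With BRSK2 overexpressed, MYC (ENSG00000136997, chr8:127735434-127741434, plus strand, hg38) rose, while 0 of the 47 ribosome biogenesis genes passed the test in that direction (3 were higher at an unadjusted p under 0.05, and DESeq2 called 1, NPM1). Over all tested genes 4.77% were called higher. No result about the 47 genes follows from 0 calls beside a share of that size. In other settings NPM1 was also called higher, with the replicate number as a block, with offsets for GC content and length, and without BRSK2 replicate 1. WDR75 was called higher with those offsets, and NOP56 without BRSK2 replicate 1. MYC stood at 95.9, 115 and 108 CPM in the BRSK2 libraries, against 73.0 and 56.6 CPM in the hcRED libraries and 97.6 and 86.5 CPM in the Mock libraries. All BRSK2 libraries lay above both hcRED libraries, while BRSK2 replicate 1 lay below Mock replicate 2. The difference was 0.46 ± 0.08 against the controls (1.38-fold, adjusted p = 0.00157) and 0.72 ± 0.10 against hcRED alone (1.64-fold, adjusted p = 0.000442). Against Mock alone it was 0.21 ± 0.10 and missed the threshold (adjusted p = 0.222). In bulk RNA, a change in the share of cells that express a gene and a change in RNA per cell cannot be told apart.

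BRSK1 libraries held 89.7, 79.2 and 84.3 CPM of MYC. These values lay above both hcRED libraries, and 1 of the 3 lay inside the range of the Mock libraries with the others below it. The differences were 0.13 ± 0.08 against the controls (adjusted p = 0.386) and 0.38 ± 0.10 against hcRED alone (adjusted p = 0.0741), and neither passed. Each BRSK2 value exceeded each BRSK1 value, with a direct difference of 0.34 ± 0.09 (adjusted p = 0.117) that did not pass. The hcRED libraries were lower than the Mock libraries by -0.51 ± 0.11 (adjusted p = 0.134), a gap larger than the difference of BRSK2 cells from the controls. The call for BRSK2 cells was kept in 22 of 24 alternatives against the controls and in 22 of 22 against hcRED. It was lost with Mock alone and with all 4 control libraries taken as 1 group (0.44, adjusted p = 0.154).

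The partner MAX (ENSG00000125952) was at 46.6, 56.2 and 59.6 CPM in BRSK2 libraries, at 46.2, 61.6 and 46.9 CPM in BRSK1 libraries, at 57.3 and 48.4 CPM in hcRED libraries and at 58.9 and 47.2 CPM in Mock libraries. All groups overlapped, with differences of 0.03 ± 0.12 for BRSK2 and -0.04 ± 0.12 for BRSK1 against the controls (adjusted p = 0.923 and 0.896). MYCN, a MYC relative of embryonic and neural tissue, had 0 to 5 counts per library and was not tested. Per kilobase of gene length, the mean level over the 10 libraries was 29.5 CPM for MYC, 11.9 CPM for MAX and 0.0412 CPM for MYCN.

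**Figure D1:**
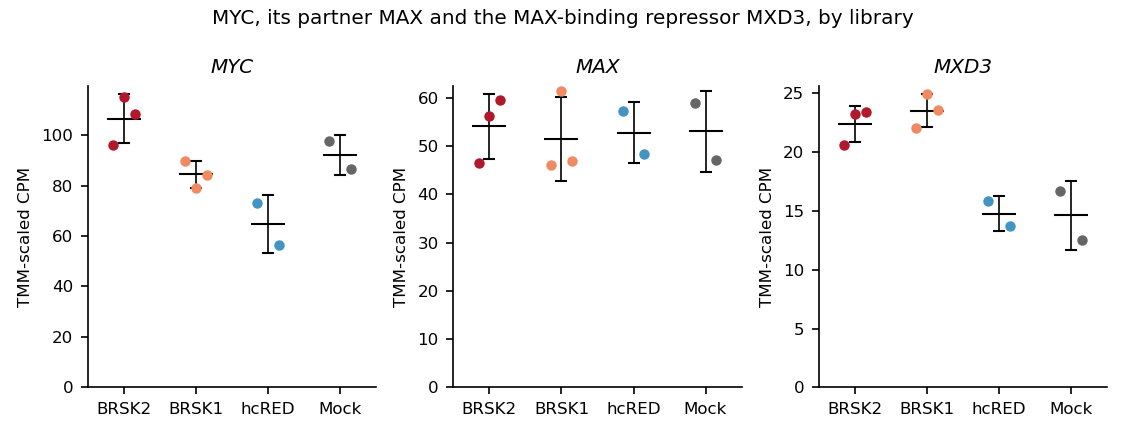
Levels of MYC, MAX and the MAX-binding repressor MXD3 in TMM-scaled CPM (vertical axes) in each library of the BRSK2, BRSK1, hcRED and Mock groups (points), with group means and SD (bars). MYC in BRSK2 libraries, at 95.9 to 115 CPM, lies above both hcRED libraries and reaches into the Mock range, MAX overlaps in all groups, and every kinase library exceeds every control library for MXD3.

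RRN3 was the RNA polymerase I gene called in BRSK2 cells and POLR1A the one called in BRSK1 cells, both lower. RRN3 (ENSG00000085721, chr16:15060022-15094317, minus strand), the factor that brings the polymerase to the ribosomal DNA promoter, had 61.3, 63.4 and 58.0 CPM in BRSK2 libraries, 68.5, 66.7 and 63.6 CPM in BRSK1 libraries, 70.0 and 73.1 CPM in hcRED libraries and 75.3 and 72.1 CPM in Mock libraries. Every BRSK2 and every BRSK1 library lay below every control library. RRN3 fell with BRSK2 by -0.25 ± 0.06 (adjusted p = 0.0162), and the difference with BRSK1 was -0.13 ± 0.06 (adjusted p = 0.221). Against hcRED alone the BRSK2 difference was -0.23 ± 0.08 and missed the threshold (adjusted p = 0.0902). POLR1A (ENSG00000068654, chr2:86020216-86106155, minus strand), the largest and catalytic subunit, had 212, 172 and 176 CPM in BRSK2 libraries, 187, 167 and 164 CPM in BRSK1 libraries, 202 and 191 CPM in hcRED libraries and 225 and 250.3 CPM in Mock libraries. The BRSK1 libraries all lay below the control libraries, while BRSK2 replicate 1 lay above both hcRED libraries. POLR1A fell with BRSK1 by -0.32 ± 0.07 (adjusted p = 0.0097), while the difference from hcRED alone was -0.18 ± 0.08 (adjusted p = 0.315). With BRSK2 it was the member just outside the threshold, at -0.21 ± 0.07 (adjusted p = 0.0708).

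The other subunit and the DNA-binding factor were not called against the controls. POLR1B, the second largest subunit, had 106, 86.9 and 90.4 CPM in BRSK2 libraries, 93.0, 91.7 and 82.6 CPM in BRSK1 libraries, 92.5 and 89.7 CPM in hcRED libraries and 109 and 116 CPM in Mock libraries. The Mock libraries were the highest, and the kinase libraries spanned the hcRED values. POLR1B differed by -0.10 ± 0.07 with BRSK2 and by -0.19 ± 0.07 with BRSK1 (adjusted p = 0.41 and 0.107). UBTF, which binds the ribosomal DNA and holds it open, had 257, 258 and 241 CPM in BRSK2 libraries, 242, 239.9 and 225 CPM in BRSK1 libraries, 249 and 268 CPM in hcRED libraries and 252 and 231 CPM in Mock libraries. BRSK2 libraries overlapped every other group, and BRSK1 libraries lay below both hcRED libraries and overlapped the Mock libraries. UBTF differed from the controls by 0.01 ± 0.06 with BRSK2 and by -0.09 ± 0.06 with BRSK1 (adjusted p = 0.933 and 0.4).

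The snoRNP proteins modify the precursor RNA. NOP58 was the 1 of the 7 called against the controls, lower in BRSK2 cells, where 3.05% of all tested genes were called lower. NOP58 (ENSG00000055044, chr2:202265716-202303666, plus strand), a core protein of the C/D box particles that guide methylation, had 159.7, 174 and 172 CPM in BRSK2 libraries, 171, 178 and 169 CPM in BRSK1 libraries, 185 and 186 CPM in hcRED libraries and 200.5 and 193 CPM in Mock libraries. All kinase libraries lay below all control libraries. NOP58 fell with BRSK2 by -0.18 ± 0.06 (adjusted p = 0.0449), the call nearest the threshold, and this call was kept in 9 of 24 alternatives. From hcRED alone NOP58 differed by -0.14 ± 0.07 (adjusted p = 0.27). With BRSK1 the difference was -0.14 ± 0.05 (adjusted p = 0.114). FBL, the methyltransferase of the same particles, had 516, 513 and 492 CPM in BRSK2 libraries, 407, 459.9 and 376 CPM in BRSK1 libraries, 529 and 422 CPM in hcRED libraries and 569 and 469.5 CPM in Mock libraries. The controls spread widely, and 1 BRSK1 library lay between the hcRED libraries with the others below all controls. FBL was the member just outside the threshold with BRSK1, at -0.26 ± 0.08 (adjusted p = 0.0707), and differed by 0.03 ± 0.08 with BRSK2 (adjusted p = 0.89). NOP56, the companion of NOP58, differed by 0.10 ± 0.07 with BRSK2 and by 0.06 ± 0.06 with BRSK1 (adjusted p = 0.363 and 0.639). The pseudouridylation proteins DKC1, GAR1 and NHP2 and the chaperone NOLC1 ranged over -0.14 to -0.04 with BRSK2, and over -0.23 to -0.03 with BRSK1, and none was called.

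The abundant nucleolar proteins were called in neither kinase group. NCL, nucleolin, had 2081, 1944 and 1868 CPM in BRSK2 libraries, 1930.2, 1957 and 1765 CPM in BRSK1 libraries, 1980.2 and 1856 CPM in hcRED libraries and 2067 and 2140.3 CPM in Mock libraries. NPM1, the nucleolar chaperone nucleophosmin, had 2069, 2307 and 2251 CPM in BRSK2 libraries, 2115, 2236 and 2162 CPM in BRSK1 libraries, 1995 and 1877 CPM in hcRED libraries and 2068 and 1953 CPM in Mock libraries. For NCL the BRSK2 libraries overlapped every other group, while both Mock libraries lay above every BRSK1 and every hcRED library. Each kinase library exceeded each control library for NPM1. The NPM1 differences were 0.16 ± 0.06 with BRSK2 and 0.14 ± 0.06 with BRSK1 and missed the threshold (adjusted p = 0.118 and 0.203). DESeq2 called NPM1 higher with BRSK2. GNL3, a nucleolar GTPase, differed by -0.01 ± 0.07 and 0.08 ± 0.07 (adjusted p = 0.966 and 0.551). Per kilobase, NPM1 at 549 CPM, NCL at 283 CPM and FBL at 218 CPM were the highest of the 50 members.

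Of 12 members of the small subunit processome and 40S maturation, UTP15 and UTP20 fell with BRSK2 and WDR43 with BRSK1, and 0 rose with either. Of all tested genes 4.77% were called higher and 3.05% lower with BRSK2, and 3.77% higher and 2.66% lower with BRSK1. With 12 members, no result about the group follows from these counts. UTP15 (ENSG00000164338, chr5:73565443-73583377, plus strand), a processome protein that also acts in ribosomal DNA transcription, had 36.8, 37.0 and 34.1 CPM in BRSK2 libraries, 39.4, 43.4 and 38.4 CPM in BRSK1 libraries, 43.3 and 40.1 CPM in hcRED libraries and 43.1 and 46.7 CPM in Mock libraries. The BRSK2 libraries all lay below the controls and the BRSK1 libraries overlapped them. UTP15 fell with BRSK2 by -0.26 ± 0.07 (adjusted p = 0.0302), and the BRSK1 difference was -0.10 ± 0.07 (adjusted p = 0.45). BRSK2 cells differed in UTP15 from hcRED alone by -0.21 ± 0.09 (adjusted p = 0.198). UTP20 (ENSG00000120800, chr12:101280109-101386616, plus strand), a very large scaffold whose promoter is printed above, had 81.8, 68.0 and 72.5 CPM in BRSK2 libraries, 82.8, 82.8 and 76.3 CPM in BRSK1 libraries, 77.0 and 82.9 CPM in hcRED libraries and 91.2 and 100.4 CPM in Mock libraries. All kinase libraries lay below both Mock libraries and overlapped the hcRED libraries. UTP20 fell with BRSK2 by -0.24 ± 0.07 against the controls (adjusted p = 0.0352), while the difference from hcRED alone was -0.11 ± 0.08 (adjusted p = 0.534).

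WDR43 (ENSG00000163811, chr2:28894643-28948222, plus strand), a partner of UTP15 in the same subcomplex, had 174, 161 and 154 CPM in BRSK2 libraries, 150.1, 153 and 139 CPM in BRSK1 libraries, 162 and 151 CPM in hcRED libraries and 182 and 198 CPM in Mock libraries. BRSK1 libraries lay below both Mock libraries and reached into the hcRED range. WDR43 fell with BRSK1 by -0.23 ± 0.06 (adjusted p = 0.0265), while against hcRED alone the difference was -0.09 ± 0.07 (adjusted p = 0.621). The other 9 members of the group (WDR75, UTP4, NOP14, NOC4L, RRP9, RRP12, BYSL, TSR1 and DDX10) ran over -0.03 to 0.14 with BRSK2, and over -0.18 to 0.19 with BRSK1, and none was called. WDR75 was the highest of them in both, at 0.14 ± 0.06 with BRSK2 and 0.19 ± 0.06 with BRSK1 (adjusted p = 0.175 and 0.0803).

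Of 21 members of 60S assembly and maturation, URB2 fell with both kinases, GRWD1 and RRP1 fell with BRSK1, and 0 rose. The shares of all tested genes were 4.77% higher and 3.05% lower with BRSK2, and 3.77% higher and 2.66% lower with BRSK1. With 21 members, no result about the group follows from these counts. URB2 (ENSG00000135763, chr1:229626234-229660199, plus strand), whose yeast counterpart acts early in 60S assembly, had 93.1, 82.7 and 79.6 CPM in BRSK2 libraries, 96.7, 82.1 and 84.1 CPM in BRSK1 libraries, 90.4 and 92.9 CPM in hcRED libraries and 107 and 125 CPM in Mock libraries. Kinase libraries lay below both Mock libraries, and replicate 1 of each kinase exceeded at least 1 hcRED library. URB2 fell by -0.28 ± 0.07 with BRSK2 and by -0.24 ± 0.07 with BRSK1 (adjusted p = 0.0207 and 0.0493). Against hcRED alone the differences were -0.11 ± 0.09 and -0.07 ± 0.09 (adjusted p = 0.575 and 0.792).

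GRWD1 (ENSG00000105447, chr19:48445773-48457022, plus strand), a chaperone of histones and ribosomal proteins, had 190.1, 170.0 and 166 CPM in BRSK2 libraries, 179.7, 152 and 155 CPM in BRSK1 libraries, 196 and 170.2 CPM in hcRED libraries and 213 and 205 CPM in Mock libraries. RRP1 (ENSG00000160214, chr21:43789513-43805293, plus strand), a 60S processing factor, had 172, 162 and 157 CPM in BRSK2 libraries, 155, 149 and 138 CPM in BRSK1 libraries, 167 and 152 CPM in hcRED libraries and 193 and 175 CPM in Mock libraries. For both genes the BRSK1 libraries lay below the Mock libraries, with replicate 1 above hcRED replicate 3. GRWD1 fell with BRSK1 by -0.27 ± 0.07 and RRP1 by -0.22 ± 0.06 (adjusted p = 0.0208 and 0.0354). From hcRED alone the BRSK1 differences were -0.17 ± 0.08 for GRWD1 and -0.11 ± 0.07 for RRP1 (adjusted p = 0.326 and 0.506). With BRSK2 the differences were -0.16 ± 0.07 for GRWD1 and -0.06 ± 0.06 for RRP1 (adjusted p = 0.162 and 0.589).

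The remaining 18 members of 60S assembly were not called in either comparison with the controls. The PES1, BOP1 and WDR12 complex, which is needed to process the large subunit RNA, was at 0.02 ± 0.06, 0.12 ± 0.07 and 0.01 ± 0.06 with BRSK2 and at -0.12 ± 0.06, -0.12 ± 0.07 and 0.04 ± 0.06 with BRSK1. The helicases DDX18, DDX21 and DDX56 stood at -0.04 to 0.03 with BRSK2 and at -0.05 to -0.01 with BRSK1. NOP2 (0.48 ± 0.33 with BRSK2) and PPAN (0.17 ± 0.25 with BRSK2) had the largest errors. NOP2 was at 0.643 to 1.65 CPM and PPAN at 3.40 to 9.23 CPM per library. On the same strand, 54.4% of the exonic bases of NOP2 are shared with AC006064.6 and 59.8% of those of PPAN with other genes, so reads can be split and both values are uncertain.

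**Figure D2:**
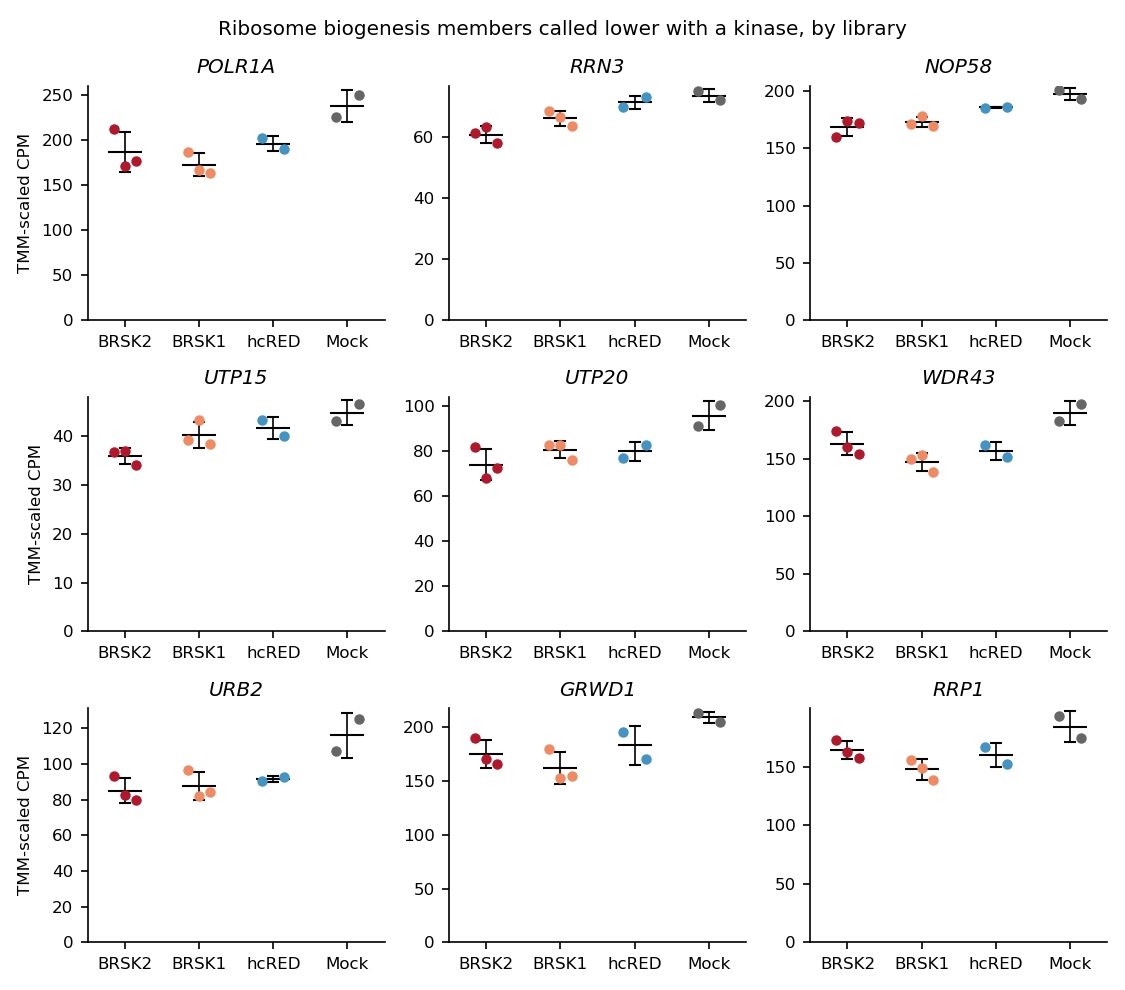
Levels in TMM-scaled CPM (vertical axes, from 0) of the 9 ribosome biogenesis members called lower with a kinase, in each library of the BRSK2, BRSK1, hcRED and Mock groups (points), with group means and SD (bars). RRN3 and NOP58 kinase libraries lie below all 4 control libraries, while for UTP20, URB2, WDR43, GRWD1 and RRP1 the Mock libraries are highest and the kinase libraries overlap those of hcRED.

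Counted over the set, 1 member rose and 5 fell with BRSK2 against the controls, of 49 tested. Over all tested genes 7.82% were called in this comparison, 4.77% higher and 3.05% lower. With BRSK1, 0 rose and 5 fell, where 6.43% of all tested genes were called, 3.77% higher and 2.66% lower. At an unadjusted p under 0.05, 4 members were higher and 7 lower with BRSK2, and 2 higher and 14 lower with BRSK1. Over all tested genes 23% and 21.8% passed in either direction. DESeq2 called 0 higher with BRSK1, while WDR75 was called higher with the replicate number as a block. The share of members called was thus above the background for lower calls and below it for higher calls, with no test of that difference. The background was all tested genes, which were not matched to the members by expression level. The members were chosen with earlier results of these data known. The median log2 fold change of the 49 members was -0.01 with BRSK2 (25 negative) and -0.10 with BRSK1 (40 negative), against 0.00 over all tested genes in both. The BRSK1 median was -0.06 without BRSK1 replicate 3, and the BRSK2 median was 0.01 without hcRED replicate 1.

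These counts changed when single libraries were left out, and calls over all tested genes moved too. The part of a given library and the part of having fewer libraries were not told apart. For BRSK2 the calls over all tested genes were 1325, against 2211, 641 and 346 without BRSK2 replicate 1, 2 and 3. For BRSK1 they were 1089, against 877, 415 and 204 without BRSK1 replicate 1, 2 and 3. For BRSK2 the count of 6 called members was 1 without BRSK2 replicate 3 and 2 without each of BRSK2 replicate 2, hcRED replicate 1, hcRED replicate 3 and Mock replicate 3, with MYC called each time. Beside MYC, RRN3 kept its call without BRSK2 replicate 2, hcRED replicate 1 or Mock replicate 3, and UTP15 without hcRED replicate 3. For BRSK1 the count of 5 was 0 without BRSK1 replicate 3 or without hcRED replicate 1, and 2 without BRSK1 replicate 2. In the authors' deposited table for BRSK2, RRN3 (-0.24, adjusted p = 0.0431) and MYC (0.48, adjusted p = 0.0429) were the members listed. In the authors' deposited table for BRSK1 these were POLR1A (-0.32, adjusted p = 0.0278) and GRWD1 (-0.27, adjusted p = 0.0466).

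The choice of control changed which members were called. Against hcRED alone, MYC was the 1 member called with BRSK2 and 0 were lower, where 3.58% of all tested genes were called, 2.22% higher and 1.36% lower. No set-wide result follows from a share of that size. At an unadjusted p under 0.05, 6 members were higher and 3 lower, where 17.8% of all tested genes passed in either direction, and DESeq2 called 0 lower. With BRSK1 against hcRED, 0 of 49 were called by edgeR, where 0.785% of all tested genes were, 0.585% higher and 0.201% lower. At an unadjusted p under 0.05, 3 members were higher and 2 lower, where 14.3% of all tested genes passed, and DESeq2 called 1, MYC, higher. The medians were 0.06 with BRSK2 (13 negative) and -0.04 with BRSK1 (33 negative). The BRSK2 median was 0.03 without hcRED replicate 3, and the BRSK1 median changed sign, to 0.0077 without BRSK1 replicate 3 and 0.0028 without hcRED replicate 1.

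Against Mock alone, 0 members rose and 6 fell with BRSK2 (NOP58, POLR1A, RRN3, UTP20, URB2 and UTP15), where 5.5% of all tested genes were called, 3.53% higher and 1.97% lower. With BRSK1 against Mock alone, 0 rose and 9 fell (POLR1A, PES1, GRWD1, POLR1B, URB2, RRP1B, RRP1, WDR43 and NOLC1), where 6.69% were called, 3.55% higher and 3.14% lower. At an unadjusted p under 0.05, 1 member was higher and 13 lower with BRSK2, and 1 higher and 23 lower with BRSK1. Over all tested genes 21.3% and 22% passed in either direction. URB2 had the largest fall of the members with BRSK2, -0.45 ± 0.09 (adjusted p = 0.00342), and POLR1A the largest called fall with BRSK1, -0.46 ± 0.08 (adjusted p = 0.0029). The medians were -0.07 with BRSK2 (36 negative) and -0.15 with BRSK1 (43 negative).

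The hcRED and Mock groups were also compared. Set against Mock, hcRED had a median of -0.12 over the 49 members with 43 negative, while the median over all tested genes was 0.00. In the main fit no member was called by edgeR (0.0295% of all tested genes were, 0.0059% higher and 0.0236% lower) and DESeq2 called 1, MYC, lower. Without adjustment, 14 members were lower and 0 higher at p under 0.05, where 8.96% of all tested genes passed in either direction. With the replicate number as a block, a pairing that was not settled, edgeR called 9 lower. These were POLR1A, GRWD1, POLR1B, URB2, MYC, RRP1B, WDR43, TSR1 and NOC3L. With that block 433 of 16936 tested genes were called, 286 of them lower. Summed over all members, the level was 11311 ± 215 CPM with BRSK2 and 10723 ± 410 CPM with BRSK1 (SD, n = 3 each), against 10689 ± 471 CPM with hcRED and 11654 ± 181 CPM with Mock (SD, n = 2 each). By library, the median deviation of members from their own mean was highest in Mock replicate 2, at 0.14 with 46 of 49 members above, and lowest in BRSK1 replicate 3, at -0.12 with 5 of 49 above. Whether a library-wide difference had a part in the lower calls was not tested.

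BRSK2 and BRSK1 cells were also compared directly. In the main fit no member was called by edgeR, where 0.348% of all tested genes were. At an unadjusted p under 0.05, 11 were higher and 1 lower in BRSK2 cells, where 12.4% of all tested genes passed in either direction. DESeq2 called 4 higher with BRSK2 (NOP14, FBL, MYC and RRP1B). The edgeR differences of these were 0.29 ± 0.08 for NOP14, 0.29 ± 0.09 for FBL, 0.34 ± 0.09 for MYC and 0.22 ± 0.06 for RRP1B (adjusted p = 0.15, 0.177, 0.117 and 0.15). With the replicate number as a block, edgeR called 5 higher (NOP14, FBL, MYC, RRP1B and BOP1), where 267 of all tested genes were called. With no filter on low counts edgeR called 3 higher (NOP14, FBL and MYC), where 188 genes were called. In the main fit the median was 0.08 with 13 of 49 negative, and it was 0.03 without BRSK1 replicate 3 and 0.05 without BRSK2 replicate 1. Members called with 1 kinase and not the other are therefore not shown by the main fit to differ between the kinases.

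**Figure D3:**
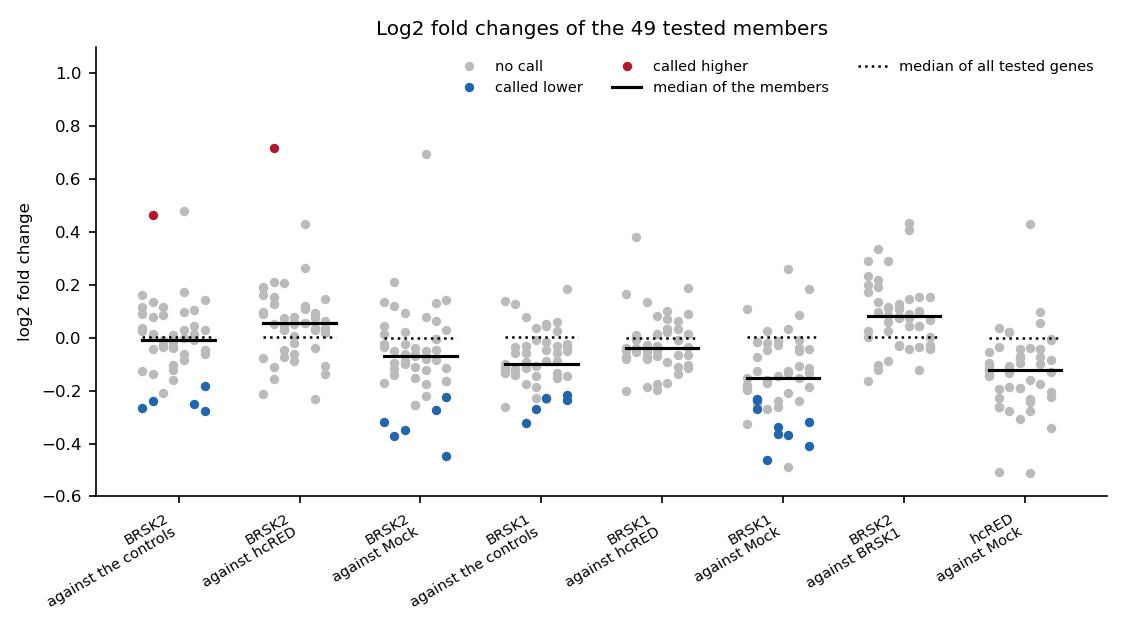
Log2 fold changes (vertical axis) of the 49 tested members (points) in 8 comparisons (horizontal axis), with members called higher in red and lower in blue, the member median as a solid line and the median of all tested genes as a dotted line. MYC is the red point at 0.46 against the controls and 0.72 against hcRED for BRSK2, and the member medians lie below 0 wherever Mock alone is the comparator, at -0.07, -0.15 and -0.12.

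**Figure D4:**
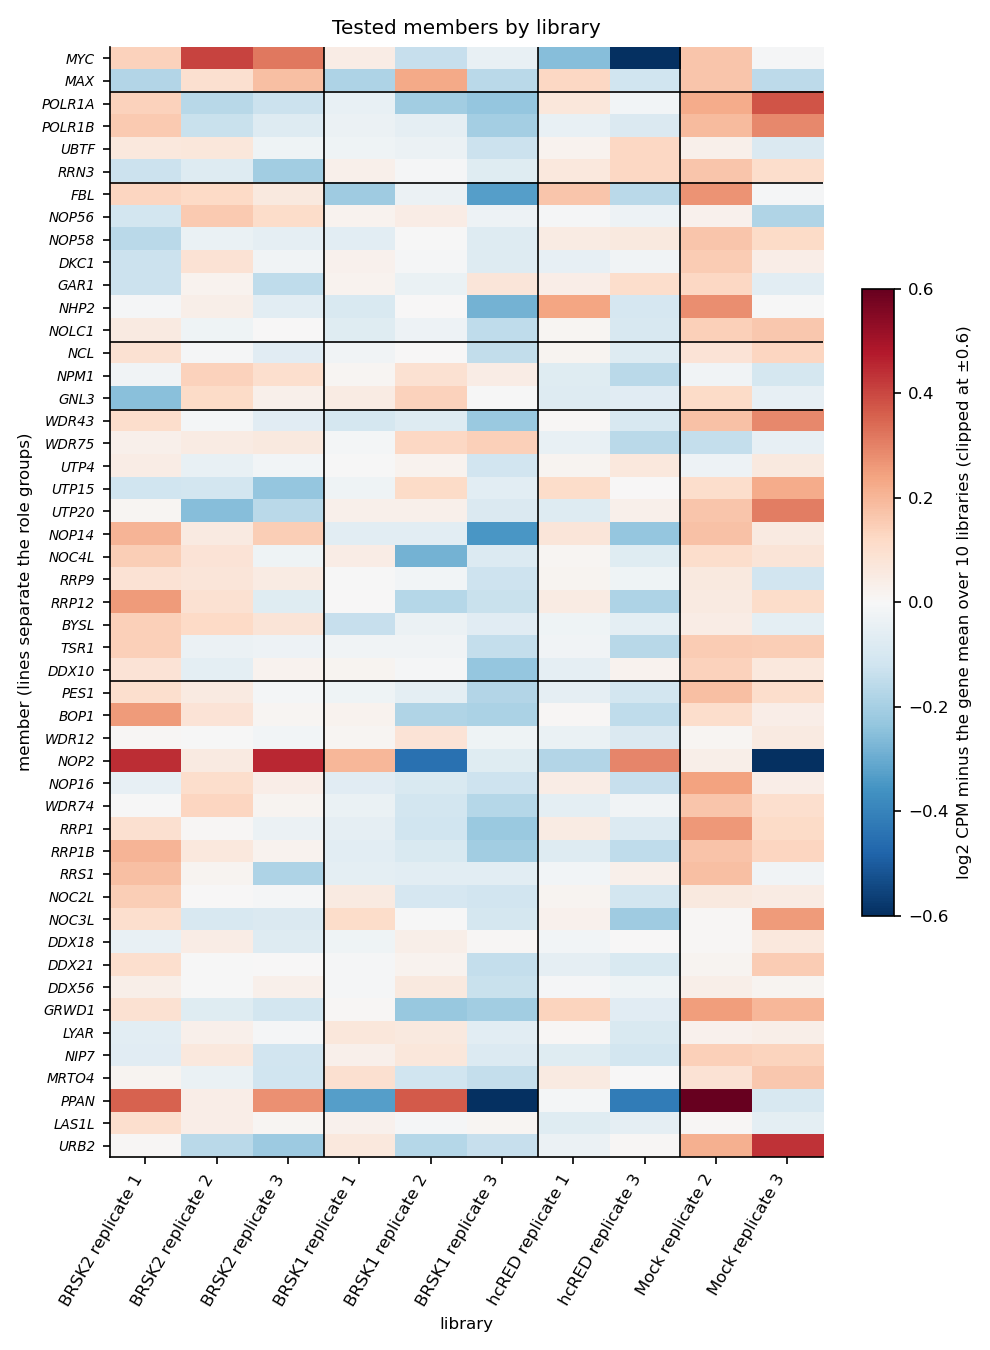
Each tested member (rows, grouped by role) in each library (columns), coloured by log2 CPM minus the mean of that gene over the 10 libraries, clipped at ±0.6. Mock replicate 2 is above the mean in 46 of 49 members and BRSK1 replicate 3 in 5, and the BRSK2 and hcRED libraries differ most in the row of MYC.

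Around MYC itself, a list of 21 network partners and turnover factors had 5 members higher and 0 lower with BRSK2, and 3 higher and 2 lower with BRSK1, of 21 tested. Over all tested genes the shares were 4.77% higher and 3.05% lower with BRSK2, and 3.77% higher and 2.66% lower with BRSK1. Its medians were 0.04 and 0.02, against 0.00 over all tested genes. This list and those below were chosen with earlier results of these data known, and no test was made of their shares. Against hcRED alone, 3 rose with BRSK2 (PIM1, MXD3 and ZBTB17) and 2 with BRSK1 (PIM1 and MXD3), where 2.22% and 0.585% of all tested genes were called higher. PIM1, a kinase that can phosphorylate MYC, had 35.0, 41.4 and 43.3 CPM in BRSK2 libraries, 30.8, 35.6 and 36.0 CPM in BRSK1 libraries, 17.7 and 20.9 CPM in hcRED libraries and 17.4 and 15.7 CPM in Mock libraries. Each kinase library exceeded each control library. PIM1 rose by 1.16 ± 0.09 with BRSK2 and by 0.93 ± 0.09 with BRSK1 (adjusted p = 2.48e-08 and 2.42e-06). MXD3, a repressor that competes with MYC for MAX, had 20.6, 23.2 and 23.4 CPM in BRSK2 libraries, 22.1, 24.9 and 23.6 CPM in BRSK1 libraries, 15.8 and 13.7 CPM in hcRED libraries and 16.7 and 12.6 CPM in Mock libraries. MXD3 rose by 0.61 ± 0.10 with BRSK2 and by 0.68 ± 0.10 with BRSK1 (adjusted p = 0.000745 and 0.00045), again with the kinase and control libraries fully apart.

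Both rises were called against hcRED alone as well, PIM1 at 1.05 ± 0.11 with BRSK2 and 0.82 ± 0.11 with BRSK1 (adjusted p = 8.32e-06 and 0.00069) and MXD3 at 0.60 ± 0.13 and 0.67 ± 0.12 (adjusted p = 0.00805 and 0.00994). The call for MXD3 against hcRED was lost with BRSK2 without hcRED replicate 3 (0.50, adjusted p = 0.195). With BRSK1 it was lost without BRSK1 replicate 3 (0.67, adjusted p = 0.0717), hcRED replicate 1 (0.77, adjusted p = 0.103) or hcRED replicate 3 (0.57, adjusted p = 0.229). The call for PIM1 against hcRED was lost with BRSK1 without hcRED replicate 1 (0.70, adjusted p = 0.0963). MLX, the MAX-like partner of the MondoA factors, rose by 0.29 ± 0.07 with BRSK2 and by 0.35 ± 0.07 with BRSK1 (adjusted p = 0.00933 and 0.00387), and was not called against hcRED alone (0.25 ± 0.08 and 0.31 ± 0.08, adjusted p = 0.0793 and 0.0565). ZBTB17 (MIZ1), through which MYC represses genes, rose by 0.49 ± 0.09 with BRSK2 (adjusted p = 0.000882) and differed by 0.21 ± 0.09 with BRSK1 (adjusted p = 0.136). Against hcRED alone the ZBTB17 rise with BRSK2 was 0.44 ± 0.10 (adjusted p = 0.0171), with adjusted p at 0.086, 0.107 and 0.217, and so no call, when BRSK2 replicate 3, hcRED replicate 1 or hcRED replicate 3 was omitted, in that order. The direct difference of ZBTB17 between the kinases was 0.28 ± 0.09 and did not pass (adjusted p = 0.187). MNT, a further MAX-binding repressor, rose by 0.35 ± 0.09 with BRSK2 (adjusted p = 0.0171). MLXIP (MondoA) and the ubiquitin ligase HUWE1 fell with BRSK1, by -0.27 ± 0.07 and -0.30 ± 0.07 (adjusted p = 0.0158 and 0.0177). From hcRED alone MNT differed by 0.34 ± 0.11 with BRSK2, and MLXIP and HUWE1 by -0.15 ± 0.08 and -0.20 ± 0.09 with BRSK1 (adjusted p = 0.0765, 0.376 and 0.285). MNT, MLXIP and HUWE1 were named after their values were seen.

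Among 35 MYC target genes outside ribosome biogenesis, 2 rose and 4 fell with BRSK2 and 0 rose and 5 fell with BRSK1, with medians of 0.02 and -0.09. Over all tested genes 7.82% were called with BRSK2 and 6.43% with BRSK1. At an unadjusted p under 0.05, 2 were higher and 12 lower with BRSK1, where 21.8% of all tested genes passed in either direction. DESeq2 called 1 higher and 8 lower with BRSK1. LDHA, lactate dehydrogenase A, had 799, 736 and 649.9 CPM in BRSK2 libraries, 843, 724 and 755 CPM in BRSK1 libraries, 909.6 and 828 CPM in hcRED libraries and 996 and 1059 CPM in Mock libraries. It fell by -0.37 ± 0.07 with BRSK2 and by -0.29 ± 0.07 with BRSK1 (adjusted p = 0.00211 and 0.0193), with BRSK1 replicate 1 above hcRED replicate 3. MTHFD2, a mitochondrial folate enzyme, rose with BRSK2 by 0.33 ± 0.07 (adjusted p = 0.00582) and differed by 0.23 ± 0.07 with BRSK1 (adjusted p = 0.0511). The amino acid transporter SLC7A5 fell with BRSK1 by -0.31 ± 0.06 and the pyrimidine enzyme CAD by -0.24 ± 0.06 (adjusted p = 0.00716 and 0.0256). With BRSK2 they differed by -0.09 ± 0.06 and -0.05 ± 0.06 (adjusted p = 0.452 and 0.688).

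With hcRED alone as the comparator, 1 of the 35 target genes rose and 0 fell with BRSK2, where 3.58% of all tested genes were called. With BRSK1, 0 were called by edgeR and by DESeq2, where edgeR called 0.785% of all tested genes. At an unadjusted p under 0.05, 3 were higher and 4 lower with BRSK1, where 14.3% of all tested genes passed in either direction. The gene called was MTHFD2, at 0.31 ± 0.08 with BRSK2 (adjusted p = 0.04), and omitting BRSK2 replicate 2 or 3, or hcRED replicate 1 or 3, ended the call (adjusted p = 0.133, 0.18, 0.178 and 0.314). LDHA differed from hcRED alone by -0.25 ± 0.08 with BRSK2 and by -0.17 ± 0.08 with BRSK1 (adjusted p = 0.0972 and 0.373). With BRSK1, SLC7A5 differed by -0.23 ± 0.08 and CAD by -0.08 ± 0.08 (adjusted p = 0.144 and 0.705). CAD in hcRED cells stood -0.33 ± 0.08 from Mock cells (adjusted p = 0.169).

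Lists of further genes of ribosome production were read against the same shares of all tested genes called, 7.82% with BRSK2 and 6.43% with BRSK1. Of 17 other RNA polymerase I subunits and factors, POLR1D rose with BRSK2 by 0.25 ± 0.07 and with BRSK1 by 0.28 ± 0.07 (adjusted p = 0.0287 and 0.0205), and POLR2E fell with BRSK1 by -0.25 ± 0.06 (adjusted p = 0.0129). Both are subunits shared with other RNA polymerases. Neither was called against hcRED alone, where POLR1D was at 0.16 ± 0.08 with BRSK2 and 0.18 ± 0.08 with BRSK1 and POLR2E at -0.20 ± 0.07 with BRSK1 (adjusted p = 0.334, 0.317 and 0.163). Of 46 other small subunit factors, NOB1 rose and UTP3 and WDR36 fell with BRSK2, and DHX37 and RRP36 fell with BRSK1. NOB1, the nuclease that makes the final cut of the small subunit RNA, had 70.5, 84.3 and 81.5 CPM in BRSK2 libraries, 66.4, 80.2 and 66.0 CPM in BRSK1 libraries, 59.6 and 51.9 CPM in hcRED libraries and 64.5 and 63.5 CPM in Mock libraries. UTP3, a processome protein, had 35.8, 38.3 and 36.5 CPM in BRSK2 libraries, 40.5, 42.4 and 40.4 CPM in BRSK1 libraries, 47.7 and 46.4 CPM in hcRED libraries and 46.0 and 43.7 CPM in Mock libraries. The BRSK2 libraries stood apart from the controls for both genes.

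NOB1 rose with BRSK2 by 0.40 ± 0.08 and UTP3 fell by -0.32 ± 0.07 (adjusted p = 0.00273 and 0.00606). Against Mock alone NOB1 differed by 0.30 ± 0.09 and was not called (adjusted p = 0.0643), and UTP3 was called at -0.28 ± 0.08 (adjusted p = 0.0436). Both were called against hcRED alone, at 0.50 ± 0.10 and -0.35 ± 0.08 (adjusted p = 0.00436 and 0.0163). With hcRED as the comparator, NOB1 was not called without hcRED replicate 3 (0.40, adjusted p = 0.162), and UTP3 not without BRSK2 replicate 3 (-0.34, adjusted p = 0.0778), hcRED replicate 1 (-0.33, adjusted p = 0.162) or hcRED replicate 3 (-0.37, adjusted p = 0.133). DHX37, a helicase of the processome, fell with BRSK1 by -0.39 ± 0.08 (adjusted p = 0.00617), while the difference from hcRED alone was -0.25 ± 0.09 (adjusted p = 0.206). The medians of the 46 genes were -0.05 with BRSK2 and -0.07 with BRSK1. Of 44 other 60S factors, 0 were called with BRSK2 by edgeR and by DESeq2. At an unadjusted p under 0.05, 5 were higher and 3 lower with BRSK2, where 23% of all tested genes passed in either direction. MDN1, RRP15 and WDR18 fell with BRSK1 by -0.34 ± 0.09, -0.23 ± 0.07 and -0.29 ± 0.08 (adjusted p = 0.039, 0.0407 and 0.0339). From hcRED alone these differed by -0.09 ± 0.11, -0.17 ± 0.08 and -0.24 ± 0.09 in the same order (adjusted p = 0.753, 0.322 and 0.236). MDN1 in hcRED cells stood -0.48 ± 0.12 from Mock cells (adjusted p = 0.192). The medians of the 44 genes were -0.02 and -0.06. WDR36 was named after its values were seen.

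Over the 5 lists, 15 of 163 genes were called with BRSK2 and 17 of 163 with BRSK1 against the controls, where 7.82% and 6.43% of all tested genes were called. The lists were chosen with earlier results of these data known, and no test was made of these shares. Many of these calls were lost when a single library was left out, and calls over all tested genes moved too, as given above. With BRSK2, 6 of 15 were kept when BRSK2 replicate 3 was left out and 7 when BRSK2 replicate 2 was, 9 without hcRED replicate 1 or Mock replicate 3, 10 without hcRED replicate 3, 11 without Mock replicate 2 and 14 without BRSK1 replicate 3. PIM1, MXD3, ZBTB17, LDHA, NOB1 and UTP3 were kept each time. With BRSK1, 3 of 17 were kept without BRSK1 replicate 3, 5 without hcRED replicate 1, 6 without BRSK1 replicate 2, 8 without Mock replicate 3, 13 without hcRED replicate 3, 14 without Mock replicate 2, 15 without BRSK1 replicate 1 and 16 without BRSK2 replicate 2. PIM1, MXD3 and MLX were kept each time.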

How the data were processed

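Total RNA of 10 HEK293T samples was sequenced, and samples were grouped by the genotype in the labels, with replicate numbers from the titles. The submitters' processing notes name STAR, edgeR, limma and the build hg38, without versions. How reads were counted, by strand or not and on which annotation, is not given in the sources used here. Raw counts per gene were deposited by the authors in a table for each kinase, joined here on gene ID. The control columns were the same in both (0 counts differed), and 0 columns of counts were left unused. Gene names, lengths and positions are those of the deposited tables. The authors' deposited comparison tables hold log2 fold changes, raw and adjusted p-values and limma's scores per gene, per the file headers. The scores and the authors' deposited log2 expression tables were not used.

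Counts were tested with edgeR 4.0.16 in R 4.3.3 (TMM, filterByExpr at a count of 10 and a total of 15, robust glmQLFit and glmQLFTest). All 10 libraries entered 1 fit with 4 group means. Benjamini-Hochberg adjustment ran over 16936 genes with a threshold of 0.05. Each SE came from the fold change and its F statistic, as |log2 fold change|/√F. Members and lists were chosen with earlier results of these data known. All 5 lists (163 genes) were matched by symbol. Values per library are given for MYC, MYCN, MAX, the RNA polymerase I members, NCL, NPM1, FBL, each member called with a kinase and the member just missing the threshold. From each list the 4 genes with the smallest p with either kinase could be named. Alternatives were RLE factors, library totals, scaling without BRSK1 and BRSK2, no filter or 1 CPM in 3 libraries, DESeq2 1.42.0, no robust estimation, an adjusted p under 0.01, the replicate number as a block, GC content and length offsets (lowess, span 0.3), only the groups compared, Mock alone, all controls as 1 group and each library left out. Where this left 1 library in a group, it was assumed to vary like the others. Scripts were tested on simulated data. Promoters are RefSeq's (GRCh38.p14). Plots used matplotlib 3.10.9 (Python 3.11.15).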

Additional observations from a re-analysis of the deposited data

How the results depend on the processing

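Of the 53 calls of single genes over members and lists, 10 held in every alternative run, and 0 changed direction. Counts of called members moved as follows. For BRSK2 against the controls the count was 6, against 12 with library totals alone (which shifted the median of all genes by -0.10), 2 with all 4 controls as 1 group, 1 at an adjusted p under 0.01 and 1 to 9 with a library left out. For BRSK1 against the controls it was 5, against 8 with GC content and length offsets, 9 with Mock alone, 2 with all controls as 1 group, 1 at an adjusted p under 0.01 and 0 to 6 with a library left out. For BRSK2 against hcRED it was 1, against 5 with library totals alone (median of all genes -0.13), 2 with the GC and length offsets and 1 to 2 with a library left out. For BRSK1 against hcRED it was 0, against 1 with no filter, with the GC and length offsets, when only the compared groups were fitted and by DESeq2, and 0 to 1 with a library left out. For BRSK2 against BRSK1 it was 0, against 3 with no filter, 4 by DESeq2 and 0 to 1 with a library left out. For hcRED against Mock it was 0, against 2 with no filter, 1 with the GC and length offsets, 1 by DESeq2 and 0 to 1 with a library left out. Calls over all tested genes moved as well. For BRSK2 against the controls they were 1325, against 3001 with library totals alone. For BRSK1 against the controls they were 1089, against 1553 with the GC and length offsets. For BRSK2 against hcRED they were 606, against 2136 with library totals alone. By DESeq2 they were 190 for BRSK2 against BRSK1 (59 by edgeR) and 52 for hcRED against Mock (5 by edgeR). The cause of these moves was not tested. Whether numbers shared between groups pair the samples was not settled. Of 12 pairs of the same number, 2 had a correlation of deviations over 0.1 (-0.051 to 0.16). The median of the 12 was 0.045, against -0.057 for pairs of unlike number. Deviations were taken from each group's mean, so in a group of 2 libraries they mirror each other. The 12 pairs are therefore not independent, the opposite signs of the medians are partly forced, and no conclusion on pairing follows. With the replicate block the count of called members was 9 for BRSK2 and 12 for BRSK1 against the controls. It was 4 for BRSK2 against hcRED, 5 for BRSK2 against BRSK1 and 9 for hcRED against Mock. With the replicate block and the GC and length offsets it was 13, 17, 4, 5 and 14 in the same order, and 1 for BRSK1 against hcRED. Over all tested genes the calls were 2153, 1999, 998, 267 and 433 with the block, in the same order. With the block and the offsets they were 2717, 2692, 1313, 159 and 668, and 809 for BRSK1 against hcRED. MYCN had too few counts to be tested. For NOP2 and PPAN, whose errors were the largest, low counts and exons shared with other genes cannot be told apart.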
